A study of Arabidopsis thaliana with 15 samples.

Results

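Stele cells sorted from Arabidopsis thaliana roots were compared after 1 h of brassinolide and without treatment, on 4 of the 15 ATH1 arrays of the study. They are WOL 1h BL A and B, called BL here, and WOL CTL A and B, called control, so each group has 2 arrays. All 4 came from roots of 6-day-old seedlings that carry pWOL:GFP, in which the WOL promoter drives a green fluorescent protein that labels the stele, the central cylinder of the root with its vascular tissue. BL roots were moved to medium with 10 nM brassinolide for 1 h and control roots were collected untreated, and neither group is described as having a mock transfer. Roots of both groups were then digested with wall-degrading enzymes for 2 h, and green protoplasts (cells without their wall) were collected by fluorescence-activated sorting. The other arrays of the study are the same line after 0.5, 2 and 4 h of BL, and cells labelled by the AtHB15 promoter with and without 2 h of BL. A probe set was used if it was called present on both arrays of BL 1 h or of control, which left 12656 of 22746 probe sets, and 6833 of these match 1 gene. Of the 12656, 10479 were present in both groups, 1663 passed through the BL arrays alone and 514 through the control arrays alone. The labels do not say whether A and B were separate cultures, so p-values may measure only the spread between arrays.

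Brassinosteroids are plant steroid hormones that promote cell elongation and vascular development. They bind the receptor kinase BRI1 and its relatives BRL1 and BRL3 at the cell surface, which leads to inactivation of the kinase BIN2 and activation of the transcription factors BZR1 and BES1. Genes for wall-loosening enzymes, among them expansins and xyloglucan endotransglucosylase/hydrolases, are well-known targets of the pathway.

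Untreated array B stood apart from the other 3 arrays. On log2(signal + 16) over the probe sets used, BL A and BL B correlated at 0.941, BL A and BL B with control A at 0.959 and 0.950, and BL A and BL B with control B at 0.867 and 0.834. The 2 controls correlated with each other at 0.899. The SD of the difference between the BL mean and control A was 0.386 over these probe sets, against 0.823 for control B. The 3' to 5' signal ratio of GAPDH, a sign of RNA integrity that grows as RNA is degraded, was 2.23 and 2.04 in BL A and B against 2.71 and 4.66 in control A and B. The same ratio for ubiquitin was 4.62 and 2.91 in BL against 5.07 and 7.43 in control. The RNA was amplified in 2 cycles before labelling, and what set these ratios was not tested. The part of RNA integrity in the results was not tested beyond the fits with these ratios as covariates. The detection call was present for 58.4% and 57.2% of probe sets in BL A and B, against 56.9% and 50.8% in control A and B.

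No probe set passed the test at 1 h. The comparison was fitted in limma over all 15 arrays with 1 mean per group, and 0 of 22746 probe sets had an adjusted p under 0.05 (0.0% called higher and 0.0% called lower). At an unadjusted p under 0.05 there were 583 higher and 927 lower (2.56% and 4.08%), and the smallest adjusted p was 0.0849, for a probe set with no gene listed. That probe set had signals of 116.4 and 120.6 in BL A and B, against 3.0 and 5.0 in control A and B. With 2 arrays a group, an exact permutation test of 1 value could not go below p = 0.333. The values below are therefore differences in signal that did not pass the test, and each is given against either control array alone.

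How many differences appeared depended on the control array. Against the mean of the controls, 507 probe sets were at least 1 higher (log2, so at least a doubling on the scale of signal + 16) in BL and 236 at least 1 lower. Against control A alone 240 probe sets differed by at least 1 in either direction, and against control B alone 2570 did. Of the 507 higher against the mean, 98 were at least 1 higher against both controls (19.3%), and 212 were under 0.5 higher against control A. Of the 236 lower, 58 were at least 1 lower against both (24.6%).

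**Figure D1:**
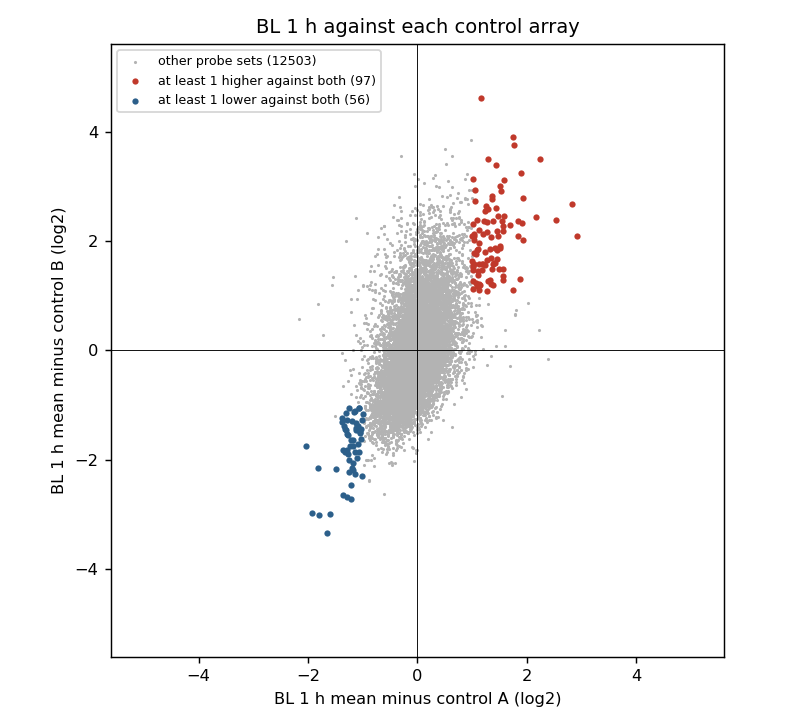
Each point is 1 of the 12656 probe sets used, at the BL 1 h mean minus control A (x axis, log2) and minus control B (y axis, log2). The cloud is narrow along x and wide along y, and the 97 red and 56 blue points lie at least 1 from both controls with no overlap of the 4 arrays.

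The held difference of a probe set is the smaller in size of its differences from control A and control B where both have the same sign. It was at least 1, with no overlap between the arrays of the groups, for 97 probe sets higher in BL (0.766% of those used) and 56 lower (0.442%). Arrays did not overlap for 2070 higher and 3190 lower probe sets in all (16.4% and 25.2%). Of the 97, 57 passed the presence filter through BL alone, and of the 56, 32 through control alone. For such probe sets the filter itself favoured a difference in that direction, though it did not force one. The highest and the lowest held differences among probe sets that match 1 gene are named here, and many of these genes carry only a locus name in the annotation. Just inside the threshold of 1 were AT2G21850 (1.01) and AT5G07860 (1.02) on the higher side, and just outside it orfX (0.99) and AT2G18690 (0.98). On the lower side AT3G21400 (-1.01) and AT3G15240 (-1.01) were inside and AT1G01920 (-0.98) and AT1G66820 (-0.98) outside.

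AT3G06460 had the largest held difference of the probe sets that match 1 gene, with signals of 761.2 and 824.3 in BL A and B, against 124.3 and 138.7 in control A and B. Its arrays did not overlap and its BL arrays lay close together. The log2 difference was 2.46 with an SE of 0.63 (adjusted p = 0.607). AT2G43610 had 368.6 and 327.6 in BL, against 60.9 and 16.1 in control, where neither array was called present. BL was at least 6.27-fold higher, taking each control array at the lowest signal called present on it where that was higher. Such folds come from the group means of log2(signal + 16), so single arrays can differ by less. AT1G29020 was also absent on both controls, with 197.8 and 271.5 in BL against 50.5 and 10.2 in control, at least 4.60-fold higher in BL. In both genes control B was the lowest of the 4 arrays.

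Some of the genes higher in BL lie next to each other in the genome. The 46 genes of the higher set that have a locus in the reference gene table (TAIR10.1) held 3 pairs of direct neighbours. The 27 such genes of the lower set held 0 pairs. These counts were not set against all genes. AT1G52050, AT1G52060 and AT1G52070 lie next to each other on chromosome 1. AT1G52060 had signals of 986.6 and 1170 in BL, against 269.5 and 141.7 in control. AT1G52050 had 400.7 and 807.0 in BL, against 148.0 and 97.7 in control. AT1G52070 had 620.4 and 543.9 in BL, against 117.4 and 93.7 in control. For each of the 3, both BL arrays lay above both controls, and the log2 differences were 2.36, 2.10 and 2.30 (adjusted p = 0.428, 0.607 and 0.689). AT5G60520 and AT5G60530, neighbours on chromosome 5, formed the third pair. AT5G60530 had 525.1 and 636.9 in BL against 150.3 and 122.9 in control. AT5G60520 had 435.0 and 94.4 in BL against 13.5 and 36.1 in control. Its BL mean was at least 5.69-fold higher, with the 2 BL arrays far apart. Whether probe sets of neighbouring genes also detect each other's transcripts was not tested.

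Among genes with a symbol, PRN, which encodes a pirin protein, had 381.7 and 201.8 in BL against 61.4 and 56.7 in control. The log2 difference was nearly the same against control A (1.93) and control B (2.02). GSTU22, a tau-class glutathione transferase, one of the enzymes that conjugate glutathione to reactive compounds, had 2519.4 and 3158.2 in BL against 936.7 and 311.8 in control. WAG2, a protein kinase that acts on the PIN auxin efflux carriers, had 1040.3 and 494.7 in BL against 255.9 and 54.1 in control. For these last genes the difference was larger against control B (3.11 and 3.39) than against control A (1.57 and 1.43). None of the 3 passed the test (adjusted p = 0.607, 0.689 and 0.691).

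The other genes of the 15 with the largest held difference had held differences of 1.47 to 1.59. AT3G23190 had 803.8 and 765.9 in BL against 250.4 and 130.4 in control. AT1G02360 had 563.6 and 757.4 in BL against 216.5 and 73.3 in control. AT3G10720 had 635.3 and 347.0 in BL against 159.5 and 72.3 in control. In these 3 genes control B was the lowest array and control A lay between it and BL. AT1G15640, called present on neither control, had 426.3 and 384.3 in BL against 128.8 and 65.5 in control and was at least 3.87-fold higher in BL. AT5G05840 was dim, with 27.5 and 67.6 in BL against 4.5 and 5.5 in control, which gives at least 1.69-fold. Further genes with a symbol had smaller held differences than WAG2. SETH3 had even values within each group, 187.7 and 171.5 in BL against 75.7 and 70.9 in control, and differed by 1.09 from control A and 1.17 from control B. GSTU27, also a tau-class glutathione transferase, had 1977.9 and 1152.4 in BL against 794.4 and 522.5 in control. CXE18, a carboxylesterase, had 147.7 and 161.9 in BL against 54.1 and 78.4 in control with control A the lower of the controls. MAP1B, a methionine aminopeptidase, had 133.9 and 193.9 in BL against 83.2 and 30.7 in control. cwINV6 differed by 0.99 from control A and 0.87 from control B, and the plastid gene atpF by 0.97 and 1.36.

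**Figure D2:**
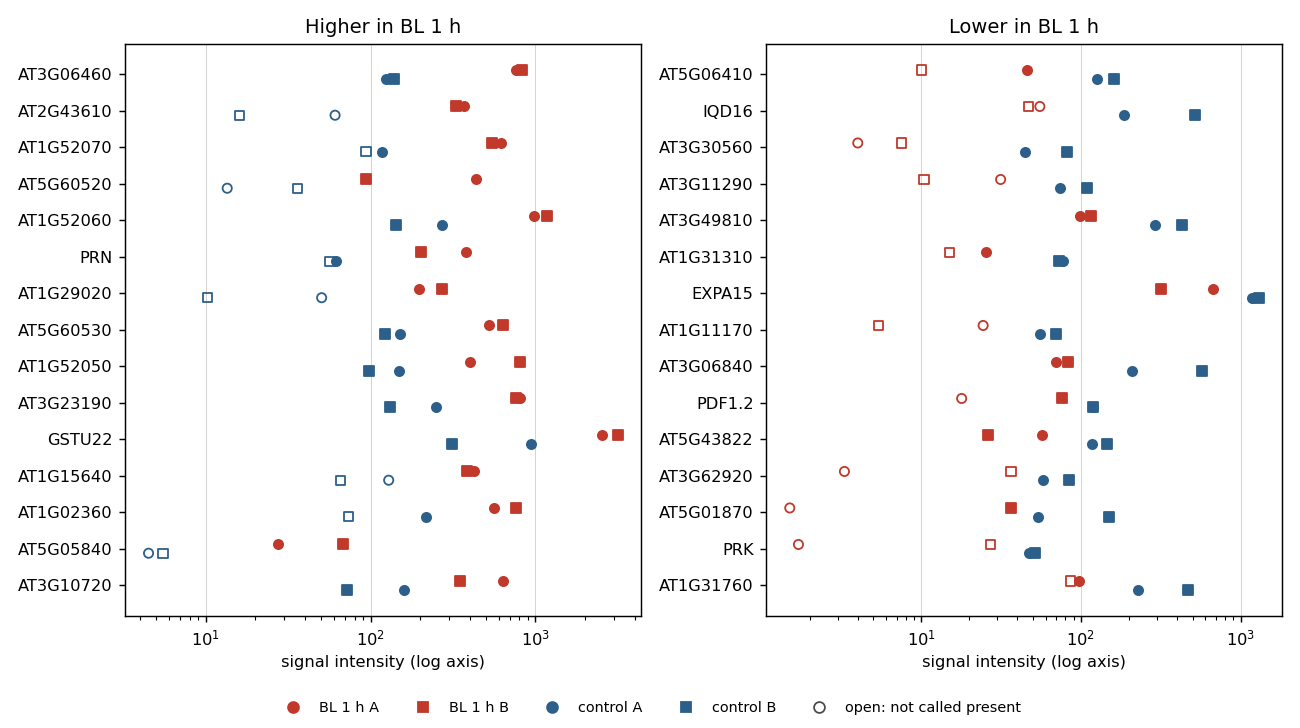
Signal intensity (x axis, log scale) on each of the 4 arrays for the 15 genes with the largest held difference higher in BL (left) and the 15 lower in BL (right). Red symbols are BL 1 h and blue symbols control, circles are A and squares B, and open symbols were not called present. Red and blue do not overlap for any of the 30 genes, which is how they were chosen.

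Of the 15 genes with the largest held difference lower in BL, 6 were called present on neither BL array. IQD16, a calmodulin-binding protein of the IQ67-domain family, had 55.3 and 47 in BL, where neither array was called present, against 185.5 and 514.9 in control. BL was at least 4.88-fold lower. EXPA15, an alpha-expansin that loosens cell walls, had the highest signals of the 15, with 675.8 and 318.7 in BL against 1172.9 and 1304.6 in control. It differed by -1.30 from control A and -1.46 from control B (adjusted p = 0.693), so control B did not set its size. AT3G49810 had 98.0 and 116.3 in BL against 290.9 and 430.9 in control. TERT, the catalytic subunit of telomerase, had 40.3 and 23.4 in BL against 88.2 and 85.0 in control, and its held difference was -1.10. PDF1.2, a plant defensin, had 17.9 and 75.6 in BL against 119.8 and 119.1 in control. The BL arrays of PDF1.2 lay far apart, while its controls were nearly equal.

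Other genes lower in BL covered several functions. FUG1, a chloroplast translation initiation factor, had 322.0 and 325.0 in BL against 572.3 and 1032.4 in control. RRP41L, a relative of an exosome subunit that trims RNA, had 149.7 and 161.0 in BL against 285.8 and 382.0 in control. ATLP-1, a thaumatin-like protein, had 354.8 and 350.3 in BL against 620.2 and 1579.1 in control. The BL arrays of each of these 3 were nearly equal, and control B was the higher control. AT3G06840 had 69.9 and 83.0 in BL against 207.9 and 572.2 in control. AT1G31760 had 97.3 and 86.1 in BL against 227.1 and 471.6 in control. AT5G06410 had 46.0 and 10.0 in BL against 125.8 and 161.4 in control, with the largest held difference on this side (-1.82). AT1G55270 had 75.7 and 70.4 in BL against 169.9 and 168.9 in control, so its groups were each nearly uniform, and it differed by -1.06 from control A and -1.05 from control B. PRK, phosphoribulokinase of the Calvin cycle, had 1.7 and 27.2 in BL against 47.5 and 51.8 in control, where all signals were low. AT3G30560 had 4.0 and 7.5 in BL against 44.6 and 81.9 in control, on a probe set of the kind that may detect several transcripts. MRL7-L, KICP-02, CHR40 and scpl50 had held differences of -0.90, -0.85, -0.81 and -0.78. The other 6 of the 15 genes were dim. AT1G31310 had 25.5 and 15.1 in BL against 76.8 and 72.8 in control. AT5G43822 had 56.7 and 26.3 in BL against 117.0 and 146.7 in control. AT5G01870 had 1.5 and 36.4 in BL against 53.9 and 151.0 in control. These 3 were called present on at least 1 BL array, and the next 3 on neither. AT3G11290 had 31.4 and 10.4 in BL against 74.4 and 108.8 in control and was at least 2.60-fold lower. AT1G11170 had 24.4 and 5.4 in BL against 55.4 and 69.3 in control, at least 2.07-fold lower. AT3G62920 had 3.3 and 36.5 in BL against 58.0 and 83.6 in control, at least 2.27-fold lower.

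Brassinosteroid signalling itself was little covered. The annotation names 2 of the 32 genes on the signalling list, and 0 of 16 on the list of brassinosteroid synthesis. BRL1, the receptor related to BRI1 that is active in vascular tissue, had 10.6 and 42.9 in BL, where it was absent, against 53.8 and 66.5 in control. BL was at least 1.89-fold lower. BIM1, a partner of BES1 in binding DNA, had 725.3 and 467.0 in BL against 402.6 and 375.9 in control. Its difference was similar against control A (0.52) and control B (0.61). Neither passed the test (adjusted p = 0.744 and 0.762).

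Growth genes known to be induced by brassinosteroid had positive differences from both controls. Of the 36 listed, 7 are named by the annotation and 6 were used, and 0 passed the test. All 6 had a positive difference, with a median of 1.12 (0.60 against control A and 1.75 against control B), where the median over all probe sets used was -0.06 (-0.03 and -0.12). For 5 of the 6 the arrays did not overlap and BL was higher, as for 16.4% of all probe sets used. The gene lists of this report were chosen with earlier results of these data known. Their counts and medians are therefore not an independent test. TUB1, a beta-tubulin, had 1288 and 894.2 in BL against 630.8 and 236.5 in control. FER, the receptor kinase FERONIA of wall sensing, had 683.9 and 660.1 in BL against 412.8 and 147.5 in control. EXO, a secreted growth-promoting protein, had 566.7 and 290.7 in BL against 267.5 and 225.0 in control. The lowest array of TUB1 and FER was control B, whereas the EXO controls lay close together. EXPA8, ARL and THE1 had differences of 1.50, 0.86 and 0.57, and 0.63, 0.28 and 0.10 against control A. EXPA8 passed the presence filter through BL alone.

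Enzymes that cut and rejoin xyloglucan, the main cross-linking glycan of the wall, showed the same order of arrays. The annotation names 9 of the 41 on the list and 6 were used. XTH19 had 1401.3 and 933.6 in BL against 603.8 and 108.6 in control. XTH18 had 1289.8 and 1117.2 in BL against 744.6 and 225.4 in control. XTH21 had 1857.3 and 1154.9 in BL against 978.0 and 447.9 in control. In each, both BL arrays lay above control A and control A above control B. XTH16 had 496.1 and 315.3 in BL against 225.5 and 138.0 in control. EXGT-A3 differed by 0.61, and XTH20 overlapped between the groups. The list's median difference was 1.11, with 0.63 against control A and 1.55 against control B, and 0 members passed the test (adjusted p = 0.659 for XTH19).

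Expansins differed in direction. Of 10 used, 3 were higher in BL with no overlap, 1 was lower with no overlap, and the other 6 overlapped. Over all probe sets used, the shares were 16.4% higher and 25.2% lower. The list's median difference was 0.74, with 0.2 against control A and 1.19 against control B. Of the 10 differences, 7 were positive and 3 negative. EXLA2, an expansin-like protein, had 578.4 and 594.1 in BL against 238.8 and 186.9 in control. Its difference was 1.24 against control A and 1.57 against control B, so it was at least 1 higher against either. EXLB1 had 128.7 and 223.6 in BL against 84.5 and 65.5 in control. EXPA8 was also higher with no overlap. EXLB1 and EXPA8 passed the presence filter through BL alone, which favoured that direction. EXPA15, described above, was the lower one. EXPA7 and EXPA18, expansins of root hairs, belong to the epidermis rather than the stele. EXPA7 had 597.1 and 141.7 in BL against 294.6 and 88.5 in control, and EXPA18 501.8 and 286.9 in BL against 304.1 and 77.8 in control. Both were called present on both BL arrays and control A, and not on control B, where their signals were lowest. In a fit with the GAPDH ratio as covariate, EXPA7 differed by -0.68 and EXPA18 by -0.05, the other direction. These 2 are the 2 of the 9 epidermal markers on the list that the annotation names. Their summed signal was 1098.9 and 428.6 in BL against 598.7 and 166.3 in control, so the groups overlapped. Both markers had a positive mean difference. EXPA7 differed by 0.0 from control A and 1.57 from control B, and EXPA18 by 0.31 and 2.08. The 2 markers passed the presence filter through BL alone, which favoured that direction. Their part in the results was not tested. In sorted cells, fewer cells of a type and less RNA per cell cannot be told apart.

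The stele was also checked by its own markers. PHV and LHW, factors of vascular patterning, are the 2 of 20 stele markers that the annotation names, and WOL itself is not among them. PHV had 784.3 and 529.5 in BL against 535.2 and 653.3 in control. LHW had 954.2 and 925.7 in BL against 809.1 and 1736.9 in control. Both were present on all 4 arrays and overlapped between the groups. JKD, of the endodermis and cortex, was called absent on all 4 arrays (29 and 6.0 in BL against 11.9 and 6.2 in control). BBM, a factor of root stem cells, had 125.8 and 108.5 in BL against 172.0 and 320.4 in control, while AGL42 of the same list was absent on all 4.

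**Figure D3:**
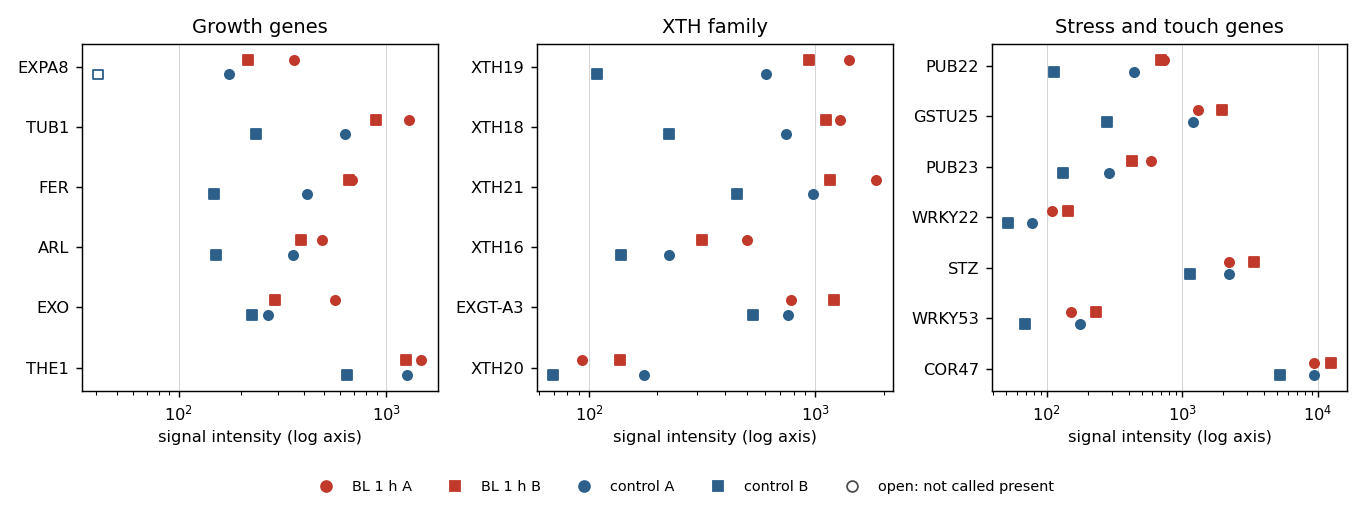
Signal intensity (x axis, log scale) on the 4 arrays for the used members of 3 gene lists, with red for BL 1 h, blue for control, circles for A, squares for B and open symbols where not called present. For most genes control B (blue square) is the leftmost symbol and control A lies nearer to the BL arrays.

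Auxin-response genes differed in both directions. Auxin acts with brassinosteroid in root growth, and GH3 enzymes conjugate the auxin indole-3-acetic acid to amino acids. Of the 9 auxin-response genes used, 4 were higher in BL with no overlap and 3 lower, where 16.4% and 25.2% of all probe sets used were. GH3.3 and GH3.17, both higher, passed the presence filter through BL alone, and IAA20, which was lower, through control alone. The filter favoured their direction. GH3.1, also lower, passed through BL alone. GH3.3 had 213.2 and 247.6 in BL against 161.5 and 42 in control. GH3.17 had 423.9 and 222.2 in BL against 156.9 and 54.4 in control. WES1, also known as GH3.5, differed by 0.40 from control A and 0.52 from control B. IAA20 and IAA30, Aux/IAA proteins without the degron of most of that family, were lower. IAA30 had 166.1 and 128.4 in BL against 299.6 and 271.2 in control, and IAA20 72.1 and 51.8 in BL against 123.7 and 159.9 in control. The difference was -0.96 from control A and -0.82 from control B for IAA30, and -0.85 and -1.19 for IAA20, so neither gene rested on 1 control. GH3.1 was the other gene below both controls, with 51.0 and 49.2 in BL against 74.1 and 64.3 in control. Its difference of -0.36 was smaller in size than its SE of 0.38, whereas GH3.3, GH3.17 and WES1 had positive differences. None of the 9 passed the test.

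Stress and touch genes had larger differences from control B than from control A. Of 55 listed, 8 are named and 7 were used, of which 6 were higher in BL with no overlap (16.4% over all probe sets used) and 0 passed the test. PUB22 and PUB23, ubiquitin ligases of the stress response, had 729.3 and 692.7, and 585.0 and 426.0, in BL. In control they had 439.0 and 113.6, and 288.1 and 131.5. STZ, a zinc-finger repressor induced by stress, had 2205.6 and 3370.4 in BL against 2204.8 and 1146.5 in control, so BL A and control A were nearly equal. GSTU25 had 1302 and 1959.9 in BL against 1193.9 and 276.1 in control. The median difference of the list was 0.83, with 0.42 against control A and 1.25 against control B. Glutathione transferases as a family had a median difference of 0.87 over 6 used, with 3 higher and 0 lower without overlap (16.4% and 25.2% over all probe sets used). Calmodulin-like proteins, calcium sensors, had a median difference of 0.91 over 5 used, with 0.13 against control A and 1.83 against control B. CML23 had 381.3 and 371.2 in BL against 343.3 and 59.9 in control, and CML38 494.7 and 981.8 in BL against 696.2 and 185.3 in control. EIN3, a transcription factor of the ethylene response, had 612.6 and 677.8 in BL against 452.6 and 434.5 in control, and its 2 controls were nearly equal.

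Of 63 cell-cycle genes listed, the annotation names 5, and most of these were lower in BL than on control B. All 5 were used and had a median difference of -0.61, with -0.18 against control A and -0.99 against control B. Without overlap, 0 were higher and 2 lower, where 16.4% and 25.2% of all probe sets used were. AUR1 and AUR2, Aurora kinases that act in mitosis, had 457.9 and 404.4, and 187.3 and 167.7, in BL. In control they had 550.3 and 825.3, and 236.2 and 397.9. PRL, a subunit of the DNA replication helicase, had 552.1 and 512.5 in BL against 522.7 and 1068.7 in control, so control A lay between the BL arrays. BBM was likewise highest on control B. No member passed the test.

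Organelle transcripts differed between the BL arrays. Of 66 plastid genome probe sets used, 14 did not overlap and were higher, and 1 was lower, with a median difference of 0.41. Over all probe sets used the shares were 16.4% and 25.2%. The plastid count of higher probe sets lay near the share over all, and that of lower ones far under it. The difference was positive for 55 of the 66, and for 5714 of the 12656 used. BL A lay at a median of -0.22 from the control mean and BL B at 1.01. accD, a subunit of plastid acetyl-CoA carboxylase, had 1089.2 and 2926.2 in BL against 835.6 and 491.4 in control. The 12 mitochondrial probe sets had a median of 0.11 in BL A and 0.93 in BL B, and 5 did not overlap and were higher, against the same 16.4% over all. cox1, a subunit of cytochrome c oxidase, had 2178.8 and 3966 in BL against 1995.5 and 2026.7 in control. For both organelles the median of BL B was above that of BL A.

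**Figure D4:**
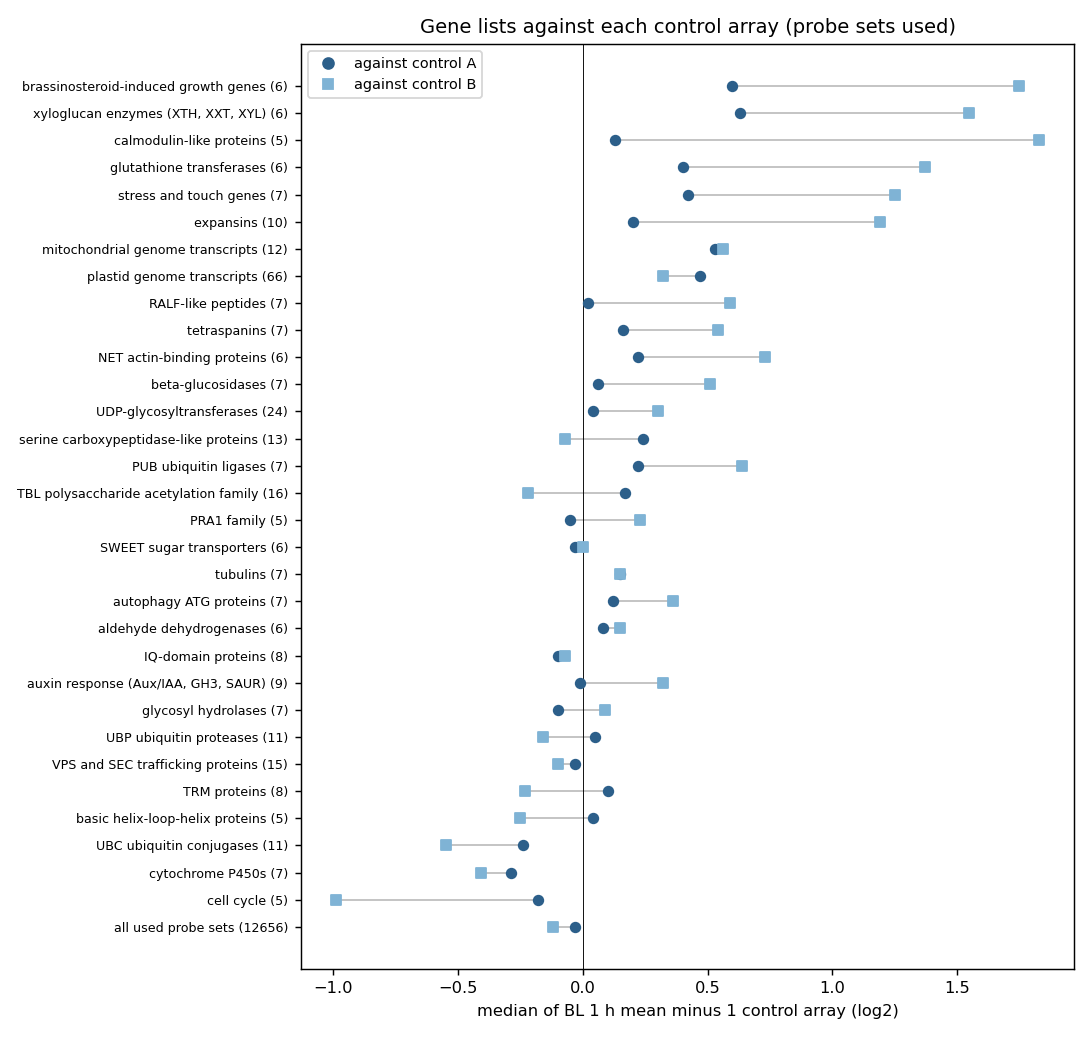
For each gene list or family with at least 5 used probe sets (number in brackets), the median difference of the BL 1 h mean from control A (circle) and from control B (square), on the log2 scale. Lists such as growth genes and xyloglucan enzymes lie further from 0 against control B (1.75 and 1.55) than against control A (0.60 and 0.63), and all used probe sets lie near 0.

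Changes that rest on 1 control are named as a set of their own. AT1G30870 had 2664.5 and 1130.5 in BL against 1379.9 and 174.3 in control, a difference of 0.33 from control A and 3.2 from control B. AT5G17820 had 3169.6 and 2995.6 in BL against 2327.4 and 372.7 in control, and AT5G39580 320.3 and 415.9 in BL against 362.9 and 27.7 in control. In these 3 genes control A lay near the BL arrays and control B far below, and AT1G30870 was at -0.02 with the GAPDH ratio as a covariate. AT1G76070 had 246.2 and 183.7 in BL against 195.7 and 11.5 in control, 0.11 from control A and 3.06 from control B. CYP718, a cytochrome P450, had 351.7 and 173.6 in BL against 309.0 and 6.6 in control, and it was not called present on either control. Its difference was -0.30 from control A and 3.55 from control B. AT1G49110, AT1G07830, AT4G23540, AT4G18400 and AT4G38410 had the reverse form, with differences of -0.25 to 0.00 from control A and -2.03 to -1.81 from control B.

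The 1 h arrays were set against the neighbouring times, a comparison that leaves out the controls. Between 0.5 and 1 h, limma called 0 probe sets, with 711 at an unadjusted p under 0.05 (3.13%), of which 359 were higher at 1 h (1.58%) and 352 lower (1.55%). Between 1 and 2 h it also called 0, with 542 at an unadjusted p under 0.05 (2.38%), of which 170 were higher at 2 h (0.747%) and 372 lower (1.64%). The 3 adjacent genes on chromosome 1 were high at 1 h. AT1G52060 had 305.1 and 456.6 at 0.5 h, 986.6 and 1170 at 1 h, and 86.5 and 109.3 at 2 h. AT1G52050 had 187.2 and 188.7 at 0.5 h, 400.7 and 807.0 at 1 h, and 51.5 and 61.4 at 2 h. AT1G52070 had 210.5 and 177.6 at 0.5 h, 620.4 and 543.9 at 1 h, and 28.3 and 45.0 at 2 h. In all 3 the 1 h arrays were the highest of the 10 WOL arrays and the 2 h arrays the lowest. The 3 genes were named for high values on these same 1 h arrays. That choice favours a peak at 1 h and a fall after it. The step from 1 to 2 h was -3.27 for AT1G52060, -3.02 for AT1G52050 and -3.52 for AT1G52070 (adjusted p = 0.115, 0.219 and 0.610). AT3G06460 had 225.1 and 191.2 at 0.5 h, 761.2 and 824.3 at 1 h, and 58.7 and 116.0 at 2 h. AT2G37700 had 3.6 and 43.7 at 0.5 h, 110.4 and 98.8 at 1 h, and 5.8 and 7.9 at 2 h, with 28.2 and 21.7 in control, where it was absent. Both 1 h arrays of each were above the arrays of the neighbouring times. AT3G06460 was also named for its 1 h values, and AT2G37700 and the genes that follow for a small p in these steps. AT5G42310 and AT4G19520 differed by 1.44 and 1.47 between 0.5 and 1 h, with adjusted p = 1.0 each. AT5G40640 had the opposite form, with 42.9 and 88.2 at 0.5 h, 5.4 and 8.5 at 1 h, and 53.3 and 55.2 at 2 h, and 33.4 and 73.2 in control. Its 2 arrays at 1 h were called absent and were its lowest of these.

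**Figure D5:**
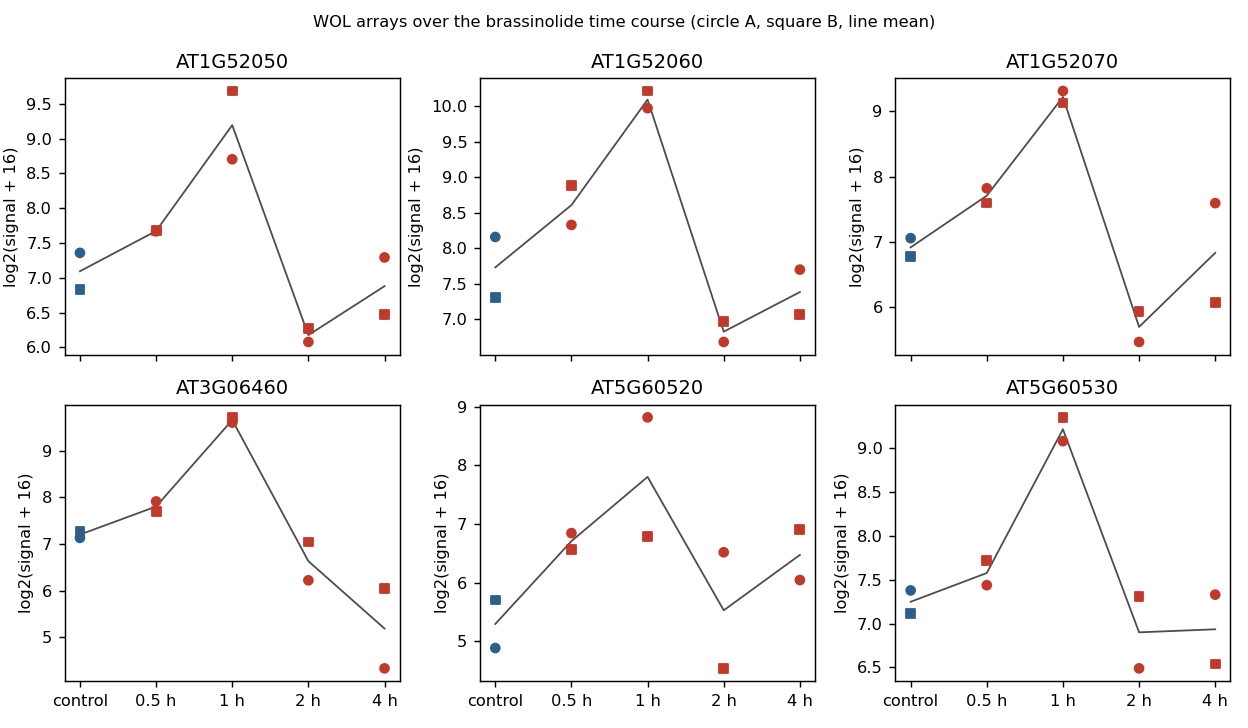
log2(signal + 16) in the WOL arrays for 6 genes in the order control, 0.5, 1, 2 and 4 h (x axis, not to scale in time), with circles for A, squares for B and the line for the mean. AT1G52050, AT1G52060, AT1G52070, AT3G06460 and AT5G60530 are highest on both 1 h arrays, and AT5G60520 on BL A alone. All 6 genes were named for high values on the 1 h arrays.

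Both 1 h arrays lay beyond the other 8 WOL arrays for 27 of the 97 probe sets higher in BL and for 8 of the 56 lower. The same held above for 132 of the 12656 used (1.04%) and below for 115 (0.909%). The 97 and 56 were chosen for lying far from the controls, which are 2 of those 8 arrays. They were also chosen on their values in the 2 arrays at 1 h. This choice favours 1 h over the other times, in the counts here and in the medians below. The comparisons of each time with the untreated cells share the control arrays, and their median differences for the 97 were 1.30, 1.64, 0.87 and 0.72 at 0.5, 1, 2 and 4 h, and for the 56 they were -1.12, -1.42, -1.10 and -1.0. IQD16 had 98.4 and 152.8 at 0.5 h, 55.3 and 47 at 1 h, 34.0 and 44.0 at 2 h and 29 and 97.4 at 4 h. EXPA15 had 584.5 and 564.0 at 0.5 h, 675.8 and 318.7 at 1 h, 497.7 and 219.8 at 2 h and 225.8 and 355.4 at 4 h. All 8 BL arrays of both genes lay below both controls. EXLA2 had 563.5 and 436.4 at 0.5 h, 578.4 and 594.1 at 1 h, 955.0 and 1083.8 at 2 h and 656.5 and 1335.6 at 4 h, all above both controls.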

How the data were processed

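RNA from sorted protoplasts was amplified in 2 cycles, biotin-labelled and hybridised to ATH1 arrays, per the labels' protocols. Per the file headers, the deposited tables give an intensity, a detection p-value and a detection call for each probe set and array. The intensities are linear, and both deposited tables hold the same 228100 intensities for the arrays read. Each array has a trimmed mean of 250, and no label or header names the software that set it. The authors' deposited table has 45 further columns of values that could not be tied to a sample by name, and they were not used.

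The deposited intensities were analysed as log2(signal + 16), leaving out 64 control probe sets. limma 3.58.1 in R 4.3.3 fitted 7 group means over 15 arrays (8 residual and 6.34 prior degrees of freedom), two-sided, with Benjamini-Hochberg adjustment over 22746 probe sets. On simulated data 6%, 64% and 96% of log2 changes of 1, 2 and 3 were recovered, so many changes of 1 would not be called. The changed probe sets were drawn from the brighter ones, and each probe set had the same spread on every array. Control B stood apart in the real data, so these rates may not hold for this comparison. The array number limits the precision.

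Genes were named by rule: the 15 highest and 15 lowest held differences with no overlap, 5 a direction that rest on 1 control, and 3 a direction for each time step. Those with a symbol and list members are also named, and the symbol genes, CML23, CML38, EIN3 and GH3.1 were chosen after their values were seen. The members, 22 lists and 28 families were chosen with earlier results of these data known. In the platform annotation 13513 probe sets match 1 gene, 503 several and 8730 none. Letters A and B were not used as pairs, since deviations of the A arrays correlated at -0.0816. A planned search of promoters for motifs was not run.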

Additional observations from a re-analysis of the deposited data

How the results depend on the processing

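The count of called probe sets was 0 in all other settings tried and 1 with median centring and 1 with p adjusted over the used probe sets only. No setting gave more. The probe set called with median centring has no gene listed (adjusted p = 0.0346). The count of probe sets at least 1 higher against each control was 97 and lower 56. It was 49 and 12 with an offset of 64, 131 and 106 with an offset of 1, 172 and 234 with no detection filter, 40 and 24 for probe sets present on all 4 arrays, 134 and 91 with the ubiquitin ratio as covariate, and 173 and 86 with the replicate block. The cause of these shifts was not tested. The share higher was 63.4%, and 80.3%, 75.7% and 42.4% with an offset of 64, with median centring (128 and 41) and with no filter. With 1 array of a group left out, the rule itself is weaker, since 1 array alone then stands for that group. The counts that follow are therefore not like for like with 97 and 56. Leaving out 1 array at a time gave 133 to 1472 higher and 139 to 1247 lower. Without control A they were 1472 and 1247, without control B 133 and 180, without BL A 306 and 183, and without BL B 204 and 139. Leaving out 1 array gave 0 calls each time. The replicate block also gave 0 calls, and since the letters pair only 2 arrays a group and their deviations correlated at -0.0816, it stands only as an alternative. Median centring moved the median of all probe sets by 0.10.

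Of 1365 values for 105 named genes over 13 settings, 1357 kept their direction. AT1G30870 was -0.02, EXPA7 -0.68 and EXPA18 -0.05 with the GAPDH ratio as covariate, and EXPA7 was -0.19 without BL A. Without control B, CYP718 was -0.30, AT4G38410 0.00, AUR3 0.02 and PRL 0.02. Over the settings that leave out 1 array, CYP718 ran between -0.30 and 3.55, AT4G38410 between -1.82 and 0.00, EXPA7 between -0.19 and 1.77, AUR3 between -1.25 and 0.02 and PRL between -0.99 and 0.02.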
